A study of Homo sapiens with 9 samples.

Results

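The glycosphingolipid synthesis enzymes described here are 10 glycosyltransferase genes, UGCG, B4GALT5, B4GALT6, A4GALT, B3GALNT1, GBGT1, ST3GAL5, ST8SIA1, B4GALNT1 and B3GALT4, out of 60683 gene IDs counted in each library. They were taken by symbol as the globo-, ganglio- and Forssman-series enzymes, and the set was selected on the readout of 1 member, GBGT1, which was high in clone 15 and at 0 in clone 37. GBGT1 is therefore described without a test, and the other 9 members were tested within a fit of all genes. All 10 had counts in at least 1 group, 8 of the 9 passed the filter on low counts in every comparison, and ST8SIA1 passed in none.

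The series holds 9 libraries of total RNA from HEK293T, an established human embryonic kidney cell line. Parental cells, clone 15 and clone 37 each gave 3 libraries. The clones are HEK293T cells into which the piggyBac transposon inserted ATG-(CAG)60-Myc-NLuc, a nanoluciferase reporter behind a CAG repeat, and ATG-(CAG)0-Myc-FLuc, a firefly luciferase reporter without it. Both clones carry both reporters and came from single sorted cells. Clone 37 was picked for high and clone 15 for low reporter expression. Each level is thus 1 clone, the parental cells carry neither insert, and the promoter of the reporters is not given in the labels. Reads were 100 bp in clone 15 and 75 bp in the other groups, so that clone and read length cannot be told apart there. Nothing says that replicates came from separate cultures, and p-values then measure only the spread between these libraries, which may be technical.

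Gene counts summed to 10334090 to 38093340 per library, and the clone 15 libraries were the deepest. Parental replicate 2 stood apart from replicates 1 and 3, with 59.7% of its read pairs in genes and a chi-square per degree of freedom of 12.2 and 12.3 against them, beside 2.06 between those 2. No call of a member was lost or gained without it. Clone 15 replicate 2 gave 10.6 and 8.70 against replicates 1 and 3 of its group, beside 4.72 between those 2. Pairs of clone 37 libraries gave 1.83 to 2.00. Of 9 kidney and epithelial marker genes, 8 averaged at least 1 CPM (counts scaled to a common library total), with summed levels of 235 to 254 CPM in parental, 248 to 270 CPM in clone 15 and 241 to 261 CPM in clone 37, while PAX8 had 1 count in all. The neuronal-like genes that HEK293 cells express (NEFL, NEFM, INA) summed to 706 to 908 CPM in parental, 3397 to 3532 CPM in clone 15 and 201 to 205 CPM in clone 37. NEFM and NEFL carried these sums, and INA had 17.3 to 19.7, 13.3 to 15.1 and 4.37 to 4.64 CPM in the same order. Stromal markers summed to 34.7 to 37.8, 54.4 to 168 and 18.9 to 20.9 CPM in the same order, all 4 with counts. COL1A1 and COL1A2 carried the clone 15 sums. COL1A2 had 5.59, 12.2 and 56.8 CPM in the clone 15 libraries and was at 0 in the other groups. LUM was highest in parental, at means of 2.14, 0.871 and 0.413 CPM in the same order, and DCN averaged at most 0.504 CPM in any group. Of the haematopoietic markers HBB and CD3E were at 0 throughout, and the list summed to at most 0.194 CPM in any library. All 3 endothelial markers had counts, but none was above 0.650 CPM summed. The part of these differences in the results was not tested.

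Glycosphingolipids are built on ceramide by glycosyltransferases of the Golgi, 1 sugar at a time. UGCG adds glucose, and B4GALT5 or B4GALT6 adds galactose to give lactosylceramide, where the pathway branches. A4GALT starts the globo series (globotriaosylceramide, the P k antigen and Shiga toxin receptor), B3GALNT1 extends it to globoside, the P antigen, and GBGT1 is named for the transfer that makes the Forssman antigen from globoside, although the common human form of the enzyme is known to lack that activity. ST3GAL5 starts the ganglio series by making the ganglioside GM3, ST8SIA1 adds a further sialic acid, B4GALNT1 makes GM2 and related gangliosides, and B3GALT4 adds galactose to those. Transcript levels were measured here, and neither enzymes nor lipids.

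The 2 globo-series genes that were at or near 0 in clone 37, GBGT1 and B3GALNT1, had the promoter sequences printed here, beside that of UGCG, which was present in all groups. RefSeq promoters on GRCh38.p14 run from 250 bases before to 50 after a start site, and 7 of the 10 members matched (14 entries). Capitals mark each CG dinucleotide. The GBGT1 window is chr9:133163865-133164164 on the minus strand. The B3GALNT1 windows are entry 1 at chr3:161105300-161105599 and entry 3 at chr3:161104685-161104984 of 3 entries, both on the minus strand. The UGCG window is chr9:111896564-111896863 on the plus strand.
GBGT1: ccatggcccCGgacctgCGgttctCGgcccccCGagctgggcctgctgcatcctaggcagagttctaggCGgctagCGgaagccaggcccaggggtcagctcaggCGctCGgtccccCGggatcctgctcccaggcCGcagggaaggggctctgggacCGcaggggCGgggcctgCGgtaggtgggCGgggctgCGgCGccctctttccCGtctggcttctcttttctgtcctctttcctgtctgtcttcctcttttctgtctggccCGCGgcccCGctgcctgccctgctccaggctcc
B3GALNT1 entry 1: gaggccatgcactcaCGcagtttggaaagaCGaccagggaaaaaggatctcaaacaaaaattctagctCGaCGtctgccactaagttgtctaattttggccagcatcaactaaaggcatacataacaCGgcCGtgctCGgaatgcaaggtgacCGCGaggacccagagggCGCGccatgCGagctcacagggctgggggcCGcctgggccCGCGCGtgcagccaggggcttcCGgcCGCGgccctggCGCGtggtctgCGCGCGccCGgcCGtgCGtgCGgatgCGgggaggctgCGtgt
B3GALNT1 entry 3: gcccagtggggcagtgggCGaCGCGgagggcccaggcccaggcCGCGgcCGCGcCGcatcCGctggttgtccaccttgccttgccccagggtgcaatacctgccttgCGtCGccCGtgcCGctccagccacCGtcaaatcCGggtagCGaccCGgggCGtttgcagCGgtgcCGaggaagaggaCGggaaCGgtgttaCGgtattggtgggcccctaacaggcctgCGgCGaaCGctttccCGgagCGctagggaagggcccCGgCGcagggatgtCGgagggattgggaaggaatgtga
UGCG: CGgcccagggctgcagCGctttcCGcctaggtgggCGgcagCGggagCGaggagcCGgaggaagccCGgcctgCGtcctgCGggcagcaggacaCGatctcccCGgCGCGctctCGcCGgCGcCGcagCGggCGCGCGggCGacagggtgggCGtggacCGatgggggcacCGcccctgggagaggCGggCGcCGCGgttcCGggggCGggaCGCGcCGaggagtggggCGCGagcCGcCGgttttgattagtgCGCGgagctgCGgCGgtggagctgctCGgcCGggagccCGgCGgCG

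The GBGT1 window held 20 CG dinucleotides, and 41.2% of 35116 promoters held at least as many. The B3GALNT1 windows held 30, 32 and 31, which put them higher in that order, with 22.4% of promoters at 30 or more. UGCG had 48 (at least as many in 1.98% of promoters) and B4GALT5 had 47 (2.41%), against a median of 14 over all promoters. The CG dinucleotide occurred in 96.0% of all promoters. A GC box, searched as GGGCGG and CCGCCC so that both strands were covered, occurred 2 times in the GBGT1 window, 2 times in entry 2 of B3GALNT1 (chr3:161105029-161105328, not printed), in neither of its other entries and 3 times in that of UGCG. It occurred in 45.0% of all promoters. A4GALT had an entry with 43 and another with 6 CG dinucleotides, the 5 entries of ST3GAL5 ranged from 3 to 48, and ST8SIA1 had 35. Such matches describe the letters of these windows, and methylation was not measured.

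GBGT1 (ENSG00000148288, chromosome 9, 133152948 to 133163945 on the minus strand, GENCODE 29 on GRCh38) separated the 3 groups. Parental libraries 1, 2 and 3 had 6, 9 and 21 counts, or 0.56, 0.65 and 1.61 CPM. Clone 15 libraries had 349, 249 and 205 counts, or 9.16, 10.1 and 11.0 CPM, and the clone 37 libraries had 0, 0 and 0. Every clone 15 library was thus above every parental one, and every parental library was above all of clone 37. The means were 10.1 ± 0.914 CPM (SD, n = 3) in clone 15 and 0.937 ± 0.583 CPM (SD, n = 3) in parental. Pooled counts gave a clone 15 to parental ratio of 10.4, with a 95% exact binomial interval of 7.42 to 14.9. Against a floor of 3 counts in each clone 37 library (0.243 to 0.290 CPM), clone 15 was at least 37.5-fold higher and parental at least 3.48-fold higher. Parental library 3 held 21 of the 36 parental counts, and without it the ratio was 16.3 (9.80 to 29.2) and the parental bound 2.23-fold. These intervals and floors cover counting error only, and these values chose the gene. Of the exon bases of GBGT1, 16.8% lie on the same strand within ENSG00000285245, a second annotated gene, which had 0 counts in all 9 libraries. That stretch holds 15.4% of the 75-base and 13.8% of the 100-base words of GBGT1, and such counts leave out reads that overlap both genes. In bulk RNA, fewer cells with a transcript and less of it per cell cannot be told apart.

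**Figure D1:**
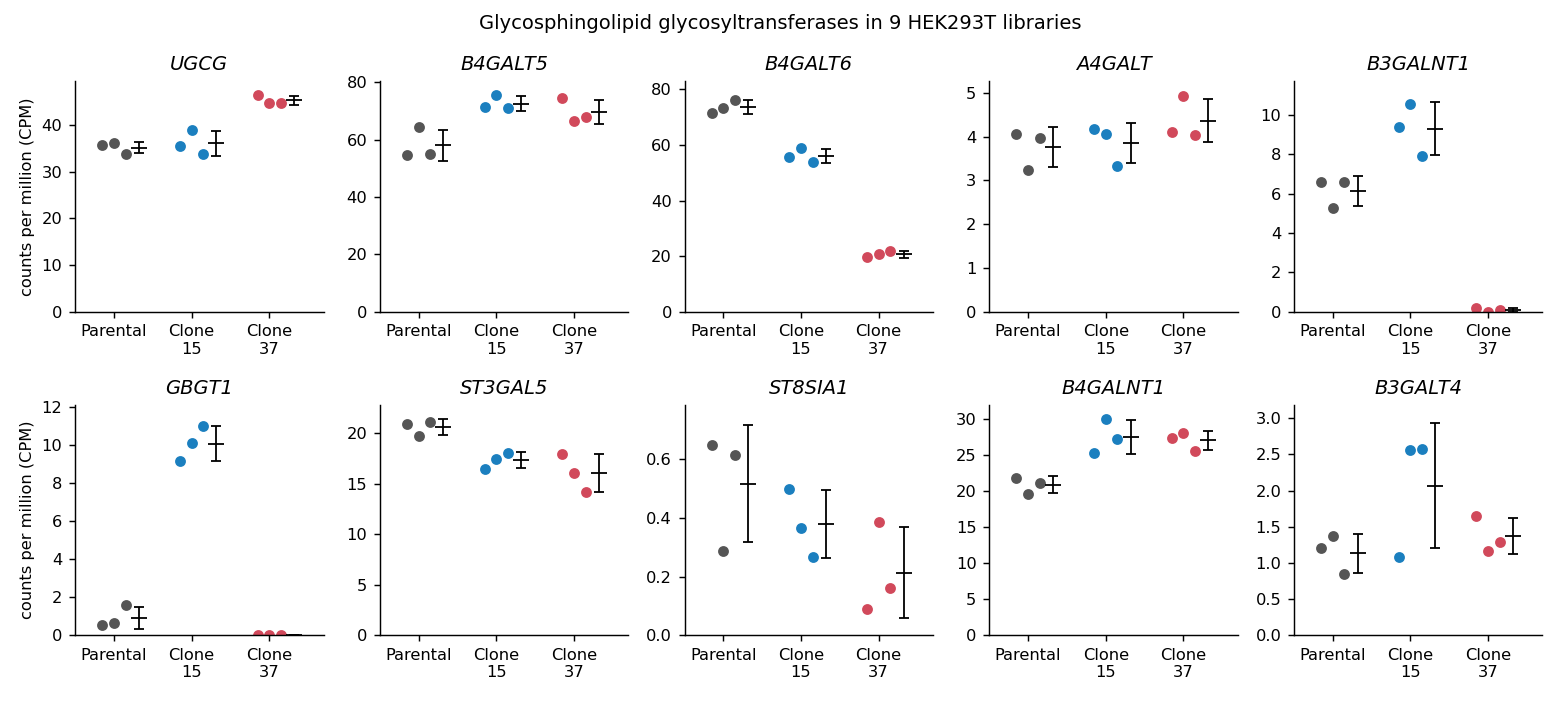
CPM (vertical axes, each from 0) of the 10 enzyme genes in the 3 libraries of each group, with the mean and SD as black bars. GBGT1 and B3GALNT1 sit at or near 0 in all clone 37 libraries, B4GALT6 lies between 19.5 and 22.0 CPM there, and A4GALT overlaps across the 3 groups.

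At the first step of the pathway UGCG, which glucosylates ceramide, rose in clone 37 only to a small extent and did not pass the test in clone 15. It had 35.6, 36.0 and 33.8 CPM in parental libraries, 35.5, 38.9 and 33.7 CPM in clone 15 and 46.4, 44.7 and 44.8 CPM in clone 37. All clone 37 libraries lay above all others, and clone 15 overlapped parental. The log2 fold change of clone 37 over parental was 0.34 (SE 0.07, edgeR quasi-likelihood adjusted p = 0.0006391), a 1.27-fold increase. Between the clones it was 0.33 (SE 0.07, adjusted p = 0.0002875). Clone 15 against parental gave 0.01 with a 95% interval from -0.18 to 0.19, and 0.20 (adjusted p = 0.0607) with GC and length trends removed.

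The lactosylceramide synthases moved in opposite directions in each clone. B4GALT6 fell in both clones and far more in clone 37, while B4GALT5 rose slightly in both. In clone 37 the tested genes around B4GALT6 were low as well, at a median log2 fold change of -1.35 within 5 Mb. DNA copy number was not measured, and its part in the B4GALT6 level and share was not tested. B4GALT6 stood at 71.5, 73.2 and 76.2 CPM in parental, 55.8, 58.8 and 53.8 CPM in clone 15 and 19.5, 20.6 and 22.0 CPM in clone 37, and no groups overlapped. The log2 fold change in clone 37 was -1.85 (SE 0.07, adjusted p = 1.962e-12), or 3.61-fold lower than parental, and clone 37 against clone 15 gave -1.43 (SE 0.08, adjusted p = 5.215e-15). In clone 15 the change was -0.42 (SE 0.08, adjusted p = 0.0001101), and it was -0.05 (adjusted p = 0.612) once the trends in GC content and transcript length of each library were removed, while clone 37 against parental then still gave -1.79.

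B4GALT5 stood at 54.8, 64.4 and 55.1 CPM in parental, 71.5, 75.5 and 71.0 CPM in clone 15 and 74.5, 66.7 and 68.1 CPM in clone 37. The clones overlapped each other and lay above all parental libraries, of which the second was nearest. Over parental, clone 15 gave a log2 fold change of 0.29 (SE 0.09) at an adjusted p of 0.009183. For clone 37 the value was 0.24 (SE 0.08) at an adjusted p of 0.01667. These calls moved with single libraries. Without parental replicate 2, the highest of its group, the values were 0.40 (adjusted p = 0.000157) in clone 15 and 0.32 (adjusted p = 3.89e-06) in clone 37. Without parental replicate 1 or 3 the clone 15 value was 0.22 and 0.22 (adjusted p = 0.0861 and 0.0844). The clone 37 value was 0.19 without parental replicate 1, 0.15 without parental replicate 3, 0.19 without clone 37 replicate 1 and 0.23 without clone 37 replicate 3, with adjusted p from 0.0818 to 0.164. DESeq2 gave 0.22 with an adjusted p of 0.0553 for clone 37.

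Per kilobase of merged exon, B4GALT6 made up 53.7%, 50.3% and 55.2% of the summed level of B4GALT5 and B4GALT6 in parental libraries. The share was 41.0%, 40.9% and 40.3% in clone 15 and 18.9%, 21.6% and 22.3% in clone 37. The groups did not overlap, with means of 53.1 ± 2.52%, 40.7 ± 0.391% and 20.9 ± 1.80% (SD, n = 3 each). These shares combine genes already tested above and are given without a test.

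**Figure D2:**
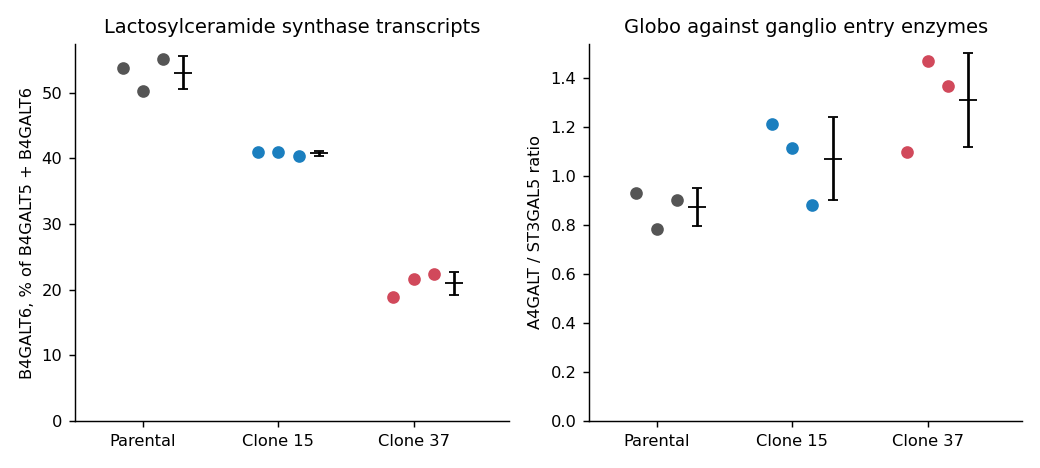
Left, the percentage of B4GALT6 in the summed level of B4GALT5 and B4GALT6; right, the ratio of A4GALT to ST3GAL5, both from CPM per kilobase of merged exon, for each library with the group mean and SD. The B4GALT6 share averages 53.1%, 40.7% and 20.9% in parental, clone 15 and clone 37 without overlap, while the ratios of clone 15 overlap those of the other groups.

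In the globo branch, A4GALT was similar in all groups whereas the next enzyme, B3GALNT1, was almost undetected in clone 37. A4GALT had 4.07, 3.24 and 3.98 CPM in parental, 4.17, 4.06 and 3.32 CPM in clone 15 and 4.11, 4.94 and 4.05 CPM in clone 37, with overlap between all groups. Its log2 fold change was 0.02 in clone 15 (95% interval -0.38 to 0.42) and 0.19 in clone 37 (-0.19 to 0.57), and neither passed the test. With 44 to 159 counts per library, changes inside those intervals could not be seen.

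B3GALNT1 was counted 71, 73 and 86 times in parental libraries, 358, 260 and 147 times in those of clone 15 and 2, 0 and 1 times in those of clone 37. That is 6.57, 5.25 and 6.58 CPM in parental, 9.40, 10.6 and 7.88 CPM in clone 15 and 0.18, 0 and 0.08 CPM in clone 37. No groups overlapped, and clone 15 was the highest. From pooled counts the parental to clone 37 ratio was 68.3 (95% interval 23.1 to 333) and the clone 15 to clone 37 ratio was 105 (35.9 to 512). Without clone 37 replicate 1, which leaves 1 count in that group, they were 138 (24.5 to 5479) and 213 (38.2 to 8435), and these intervals cover counting error only. The gene passed the filter on low counts in these 2 comparisons only through the group where it was high, so its fitted values for clone 37 are descriptions and depend on the prior count. In clone 15 the gene rose over parental by 0.58 on the log2 scale (SE 0.16, adjusted p = 0.003611), a 1.49-fold increase. GBGT1 shared with B3GALNT1 the order clone 15, parental, clone 37, and the Pearson r of the 2 genes across 9 libraries was 0.82 on the log2(CPM + 0.5) scale, a description over 3 groups.

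In the ganglio branch ST3GAL5 fell and B4GALNT1 rose in both clones. ST3GAL5, the GM3 synthase, fell in both clones, from 20.9, 19.7 and 21.1 CPM in parental to 16.5, 17.4 and 18.0 CPM in clone 15 and 17.9, 16.1 and 14.2 CPM in clone 37. All libraries of the clones were below all parental ones, and the clones overlapped. Clone 15 was below parental by a log2 fold change of -0.28 (SE 0.11) at an adjusted p of 0.03001. Clone 37 gave -0.39 (SE 0.10) at an adjusted p of 0.004059, and the clones differed by -0.10 (95% interval -0.31 to 0.10). The clone 15 call did not survive several alternatives. It was lost without clone 15 replicate 1 (-0.23) or 2 (-0.26), without parental replicate 1 (-0.30) or 3 (-0.29, adjusted p = 0.0663), with no filter on low counts (-0.29, adjusted p = 0.063), in 1 random draw of counts thinned to the smallest library (-0.16, adjusted p = 0.239) and with GC and length trends removed (-0.16, adjusted p = 0.176).

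B4GALNT1, the GM2 synthase, rose in both clones. It had 21.8, 19.6 and 21.1 CPM in parental, 25.3, 29.9 and 27.2 CPM in clone 15 and 27.3, 28.1 and 25.6 CPM in clone 37. The clones lay above all parental libraries and overlapped each other. Its log2 fold change over parental was 0.37 (SE 0.10) for clone 15, at an adjusted p of 0.004002. It was 0.35 (SE 0.09) for clone 37, at an adjusted p of 0.002373. The 95% interval of the difference between clones ran from -0.18 to 0.15. Of its exon bases, 26.7% lie opposite SLC26A10P, and 20.0% of the reads assigned to the gene on either strand were on the opposite strand, and unstranded counting moved its clone 15 level from 27.4 to 19.8 CPM.

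B3GALT4 and ST8SIA1 were low. B3GALT4 had 1.20, 1.37 and 0.84 CPM in parental, 1.08, 2.56 and 2.57 CPM in clone 15 and 1.64, 1.16 and 1.30 CPM in clone 37, so that clone 15 replicate 1 stood with the other groups while its other libraries were above all. Clone 15 over parental was 0.78 on the log2 scale (SE 0.36) at an adjusted p of 0.07281. Without clone 15 replicate 1 it was 1.15 (adjusted p = 0.00803), and clone 37 against clone 15 moved from -0.53 to -0.90 (adjusted p = 0.00836). With unstranded counts the clone 15 value was 0.68 (adjusted p = 0.0334). ST8SIA1, the GD3 synthase, was counted 7, 4 and 8 times in parental libraries, 19, 9 and 5 times in those of clone 15 and 1, 4 and 2 times in those of clone 37, with overlap, and did not pass the filter. On the opposite strand it had 60 counts against 59 on its own.

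Of the 9 members besides GBGT1, 8 were tested. In clone 15 against parental 5 passed an adjusted p of 0.05, with 3 higher and 2 lower, where 51.4% of all 17703 tested genes did (25.1% higher, 26.2% lower). In clone 37 against parental 6 passed, 3 in each direction, where 54% of 16501 genes did (26.7% higher, 27.3% lower). Between the clones 3 passed, 1 higher and 2 lower in clone 37, where 57.7% of 17712 genes did (28.7% higher, 29% lower). The counts of members lower in clone 37 include B3GALNT1 in both comparisons. With 8 genes no difference from the background is read from these shares. The median log2 fold changes of the 8 were 0.15, 0.21 and -0.08, against 0.02, 0.02 and -0.00 over all genes. The comparisons with parental share its 3 libraries.

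**Figure D3:**
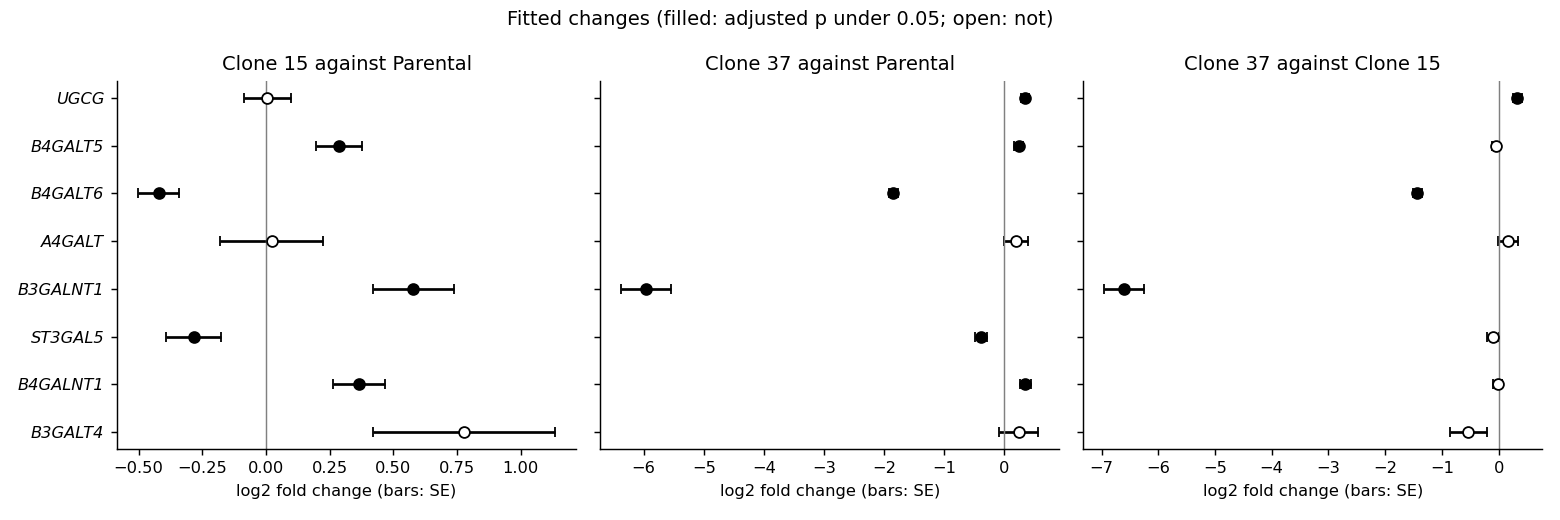
Log2 fold change (horizontal axes, a separate scale in each panel) with SE of the 8 tested enzyme genes besides GBGT1 in the 3 comparisons; filled points passed an adjusted p of 0.05. B3GALNT1 (-5.96) and B4GALT6 (-1.85) are far below 0 in clone 37 against parental, and the other 6 lie between -0.39 and 0.35 there. In both clone 37 panels B3GALNT1 passed the filter on low counts only through the other group, so its points there are descriptions.

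Levels per kilobase of merged exon put the genes on 1 scale, but the order of neighbours depends on the length used. In parental cells the order was B4GALT6 (13.9 CPM per kb), B4GALT5 (12.3), UGCG (7.61), B4GALNT1 (2.60), B3GALNT1 (1.47), ST3GAL5 (1.26), A4GALT (1.10), B3GALT4 (0.483), GBGT1 (0.232) and ST8SIA1 (0.0356). B4GALT6 and B4GALT5 overlapped over libraries, as did B3GALNT1 with ST3GAL5 and B3GALT4 with GBGT1. In clone 15 B4GALT5 (15.4) led B4GALT6 (10.6), UGCG (7.81) and B4GALNT1 (3.43), and GBGT1 (2.50) came next, overlapping B3GALNT1 (2.22) and above A4GALT (1.13), ST3GAL5 (1.06) and B3GALT4 (0.878), which overlapped as neighbours. In clone 37 B4GALT5 (14.8 CPM per kb) was followed by UGCG (9.81), B4GALT6 (3.91) and B4GALNT1 (3.37), with no overlap. A4GALT (1.28 CPM per kb) was then above ST3GAL5 (0.983) and B3GALT4 (0.580), while B3GALNT1 (0.0210), ST8SIA1 (0.0147) and GBGT1 (0) came last. The ratio of A4GALT to ST3GAL5, the entry enzymes of the 2 branches, was 0.932, 0.787 and 0.902 in the parental libraries, 1.21, 1.12 and 0.884 in those of clone 15 and 1.10, 1.47 and 1.37 in those of clone 37. Its means were 0.874 ± 0.077, 1.07 ± 0.170 and 1.31 ± 0.192 (SD, n = 3 each). Clone 37 lay above parental, and clone 15 overlapped both. With the longest transcript (6180 bases for ST3GAL5, against 16318 of merged exon) ST3GAL5 was above A4GALT in every group, and the mean ratios were 0.486, 0.596 and 0.730. By that length ST3GAL5 (3.33 CPM per kb) was also above B3GALNT1 (1.69) in parental, ST3GAL5 (2.80) above B3GALNT1 (2.56) in clone 15, and B4GALNT1 (4.84) above B4GALT6 (4.68) in clone 37.

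Around the pathway, 4 lists held 69 further genes. The largest fitted changes were those of B3GALT5 and FUT1, part of which are descriptions, as given below. Besides FUT1, the largest called changes in clone 37 against parental were of GALC (-0.97, lysosomal breakdown) and CERS1 (0.90, ceramide synthesis). Of 20 tested genes among the other glycosphingolipid glycosyltransferases, 6 were called higher and 7 lower in clone 15, where 25.1% of all genes were higher and 26.2% lower. Of 19, 7 were called higher and 5 lower in clone 37, where 26.7% and 27.3% of all genes were. FUT1, the H-antigen fucosyltransferase that also caps globo-series lipids, had 11.8, 8.92 and 9.57 CPM in parental, 2.49, 2.44 and 2.25 CPM in clone 15 and 0.46, 0.97 and 0.89 CPM in clone 37, with no overlap. The log2 fold change reached -2.09 for clone 15 (SE 0.18, adjusted p of 6.701e-10). For clone 37 the fitted values were -3.71 against parental and -1.63 against clone 15. FUT1 had only 2 clone 37 libraries above the filter on low counts (0.858 and 0.645 CPM in these comparisons) and passed it through the group where it was high, so both are descriptions.

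B3GALT5, which extends globoside and type 1 chains, was counted 2, 3 and 4 times in parental libraries, 147, 134 and 79 times in those of clone 15 and 0, 8 and 1 times in those of clone 37. Clone 15 was far above both other groups, which overlapped. The pooled ratio of clone 15 to parental was 18.6 (95% interval 9.67 to 40.9) and to clone 37 16.5 (8.61 to 36.5), with intervals for counting error only. Clone 37 replicate 2 held 8 of the 9 counts of its group, and without it the second ratio was 103 (18.4 to 4083). B3GALT5 passed the filter only through clone 15 and was not tested in clone 37 against parental, so the ratios are descriptions. ST3GAL1, a sialyltransferase with a broad role on O-glycans, fell in clone 15 (18.1, 19.3 and 18.1 CPM against 39.3, 40.2 and 35.1 CPM in parental, log2 fold change -1.08) and was 1.36 higher in clone 37 than in clone 15. ST8SIA5 rose by 1.21 in clone 15. In clone 37 ST6GALNAC6 rose by 0.79, ST3GAL3 rose by 0.45 and ST6GALNAC3 fell by 0.69 on the log2 scale, and GCNT2 was 0.78 higher than in clone 15. ABO, whose enzyme belongs to the same family as GBGT1 and whose gene lies 86456 bp from it, had 1 count in all 9 libraries.

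Ceramide synthesis showed mixed changes. In clone 15, 3 of 14 tested genes rose and 4 fell, or 50% called beside 51.4% of all genes. In clone 37 5 of 13 rose and 4 fell, where 26.7% of all genes were called higher and 27.3% lower. The ORMDL proteins, which restrain serine palmitoyltransferase, did not move together in clone 15: ORMDL1 fell by 0.87, ORMDL2 rose by 0.83 and ORMDL3 by 0.46 on the log2 scale. In clone 15 the ceramide synthase CERS6 fell by 0.50. In clone 37 SPTLC2, a subunit of serine palmitoyltransferase, fell by 0.57, ORMDL1 fell by 0.47, and the ceramide synthase CERS1 and the desaturase DEGS1 rose by 0.90 and 0.27. Clone 37 was below clone 15 for ORMDL2 (-0.93) and SPTLC2 (-0.53) and above it for CERS1 (0.78) and ORMDL1 (0.40), with 7 genes higher and 3 lower of 14 beside 28.7% and 29% of all genes.

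Ceramide transfer and the enzymes of other head groups gave 0 higher and 5 lower of 9 in clone 15, where 25.1% and 26.2% of all genes were called. The list median was -0.27, against 0.02 over all genes. PLEKHA8, also called FAPP2, which carries glucosylceramide through the Golgi, fell by 0.71, and the sphingomyelin synthase SGMS2 fell by 0.37. GAL3ST1, which makes sulfatide, averaged 1.09 CPM in parental and 0.401 CPM in clone 15, with a fitted log2 fold change of -1.61. It passed the filter on low counts only through parental, so this is a description, and it was chosen after its values were seen. In clone 37 3 of 8 rose and 2 fell, beside 26.7% and 27.3% of all genes. UGT8, which makes galactosylceramide, rose by 0.43 and SGMS1 by 0.25, while SGMS2 fell by 0.24 and PLEKHA8 by 0.21. Between the clones 4 of 8 were higher in clone 37 and 0 were lower, beside 28.7% and 29% of all genes, with UGT8 at 0.69 and PLEKHA8 at 0.50.

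The list named lysosomal breakdown gave 7 higher and 4 lower of 16 in clone 15, beside 25.1% and 26.2% of all genes. It is not limited to lysosomal enzymes, and GBA2 is among the 7. In clone 37 3 were higher and 7 lower of 16, beside 26.7% and 27.3%. Between the clones 3 were higher and 10 lower in clone 37, beside 28.7% and 29%, at a list median of -0.31. In clone 15 the sialidase NEU1 rose by 0.82 and the non-lysosomal glucosylceramidase GBA2 by 0.75, while SCARB2, the receptor that carries glucocerebrosidase to lysosomes, fell by 0.55 and the GM2 activator GM2A by 0.30. In clone 37 GALC, the galactosylceramidase, fell by 0.97 and GM2A fell by 0.81, while the sialidases NEU3 and NEU1 rose by 0.55 and 0.26. Clone 37 was below clone 15 for GBA2 (-0.91) and the sphingomyelinase SMPD1 (-0.79) and above it for SCARB2 (0.41) and the ceramidase ASAH1 (0.21). Over the 4 lists 61% of 59 tested genes were called in clone 15, 64.3% of 56 in clone 37 and 69% of 58 between the clones, beside 51.4%, 54% and 57.7% of all genes. In clone 37 the 18 called higher fell to 10 with DESeq2, 11 without clone 37 replicate 2, 10 without clone 37 replicate 3 and 9 without parental replicate 3. These counts include FUT1, B3GALT5 and GAL3ST1 where they were called.

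**Figure D4:**
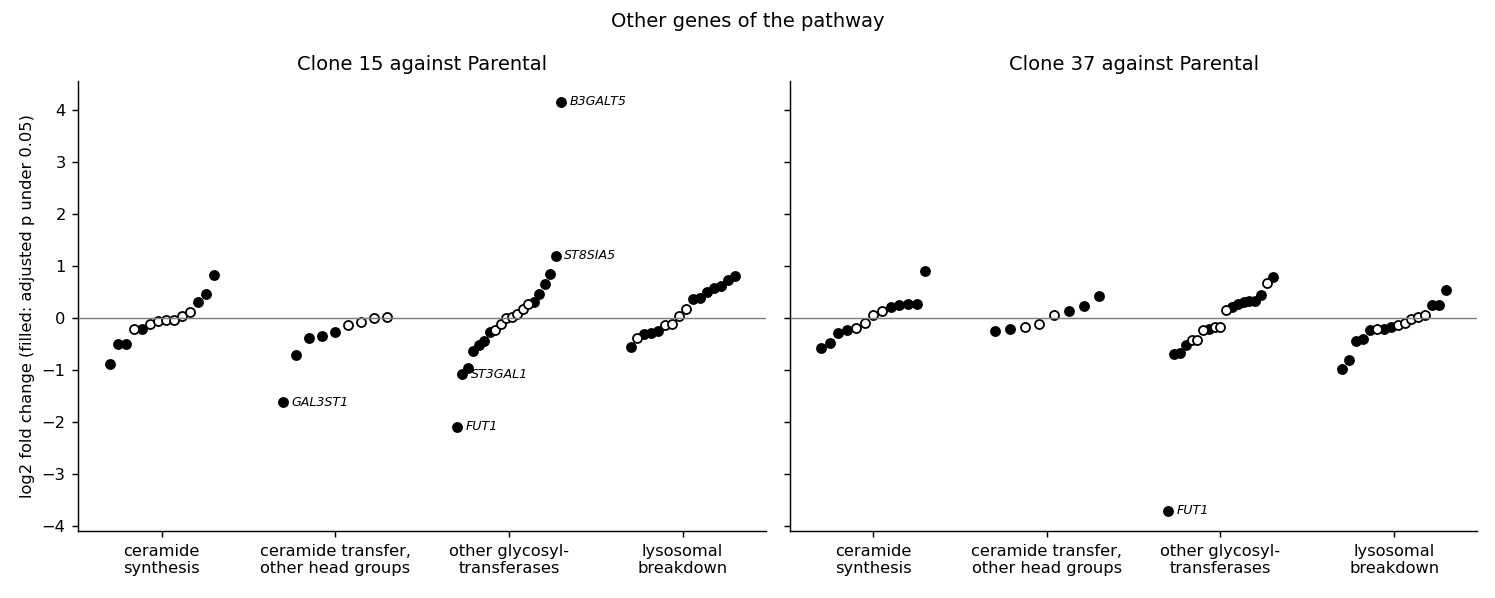
Log2 fold change of the tested genes of the 4 pathway lists in clone 15 and clone 37 against parental, ordered within each list; filled points passed an adjusted p of 0.05, and names mark genes beyond 1 in either direction with a mean of at least 1 CPM in a group. FUT1 is lowest in both panels (-2.09 and -3.71), and B3GALT5 is highest in clone 15 (4.17). B3GALT5, and FUT1 in clone 37, passed the filter on low counts through the group where they were high, so these values are descriptions.

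The surroundings of the 3 members with the widest changes are given within 5 Mb for each, beside narrower windows that differ between them. B4GALT6 (chromosome 18, 31622247 to 31685836) lay in a stretch where most tested genes fell in clone 37. Of 13 genes within 2 Mb of its start, 12 were called lower and 11 were below -1, at a median log2 fold change of -1.54. Within 5 Mb 35 of 36 were called lower, at a median of -1.35, where 27.3% of all genes were. Over the 100 nearest tested genes the median was -0.73. The desmosomal genes DSG2, DSC2 and DSC3 gave -1.79, -1.92 and -1.54, the trafficking subunit gene TRAPPC8 gave -1.34 and ASXL3 gave -2.35, beside -1.85 for B4GALT6 itself. In clone 15 the median within 5 Mb was -0.14, with 16 of 45 lower, where 26.2% of all genes were. These neighbourhoods were examined after the values of B4GALT6 and B3GALNT1 had been seen.

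B3GALNT1 (chromosome 3, 161083883 to 161105384) stood apart from the genes around it in clone 37. The 13 tested genes within 2 Mb had a median of -0.40 in clone 37, 7 were called lower, where 27.3% of all genes were, and 0 were below -1. Within 5 Mb 19 of 31 were called lower and 0 higher, 2 were below -1, and the median was -0.40. NMD3, a ribosome export gene on the other strand whose annotated start lies 688 bp inside B3GALNT1, gave -0.45 (SE 0.06, adjusted p = 1.312e-05), and PPM1L, a phosphatase gene, gave -0.54 (SE 0.07, adjusted p = 3.682e-06), beside -5.96 for B3GALNT1. In clone 15 they gave -0.30 and -0.51 where B3GALNT1 rose by 0.58. The fitted -5.96 is a description, since B3GALNT1 passed the filter on low counts there only through parental. The promoter window of B3GALNT1 entry 3 spans that start of NMD3.

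GBGT1 had 13 tested genes within 250 kb, of 31 annotated. In clone 15 8 of 13 were called higher and 0 lower, at a median of 0.32, where 25.1% of all genes were higher. In clone 37 5 of 12 were higher and 0 lower, at a median of 0.09, where 26.7% of all genes were higher. Within 5 Mb, a window chosen after the values were seen, 99 of 176 were higher and 21 lower in clone 15, at a median of 0.35. In clone 37 83 of 168 were higher and 16 lower there, at a median of 0.26. Of all genes 26.2% were lower in clone 15 and 27.3% in clone 37. The nearest, RALGDS at 3614 bp, a guanine nucleotide exchange factor gene, gave 0.11 in clone 15 (adjusted p = 0.5931) and 0.14 in clone 37, neither passing. Of the next ones on that side, CEL gave -0.24 and -0.29, neither passing, and GTF3C5, a subunit of transcription factor IIIC, rose by 0.64 and 0.28. On the other side SURF6 rose by 0.37 and 0.53, and the Mediator gene MED22 by 0.59 and 0.33. RPL7A rose by 0.26 in clone 15 and gave -0.03 in clone 37. GBGT1 itself, at 10.4-fold in clone 15 and 0 counts in clone 37, was chosen by these values. No contrast with these 6 genes is therefore drawn.

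For ST3GAL5 (chromosome 2, 85837120 to 85905199) the 100 nearest tested genes had medians of -0.34 in clone 15 and -0.35 in clone 37, beside its own -0.28 and -0.39. For UGCG (chromosome 9, 111896766 to 111935369) they were 0.01 and 0.08, beside 0.01 and 0.34. The remaining members lie on chromosomes 20 (B4GALT5, 49632945 to 49713878), 22 (A4GALT, 42692112 to 42721298), 12 (B4GALNT1, 57623410 to 57633355, and ST8SIA1, 22063773 to 22437041) and 6 (B3GALT4, 33277132 to 33284832).

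**Figure D5:**
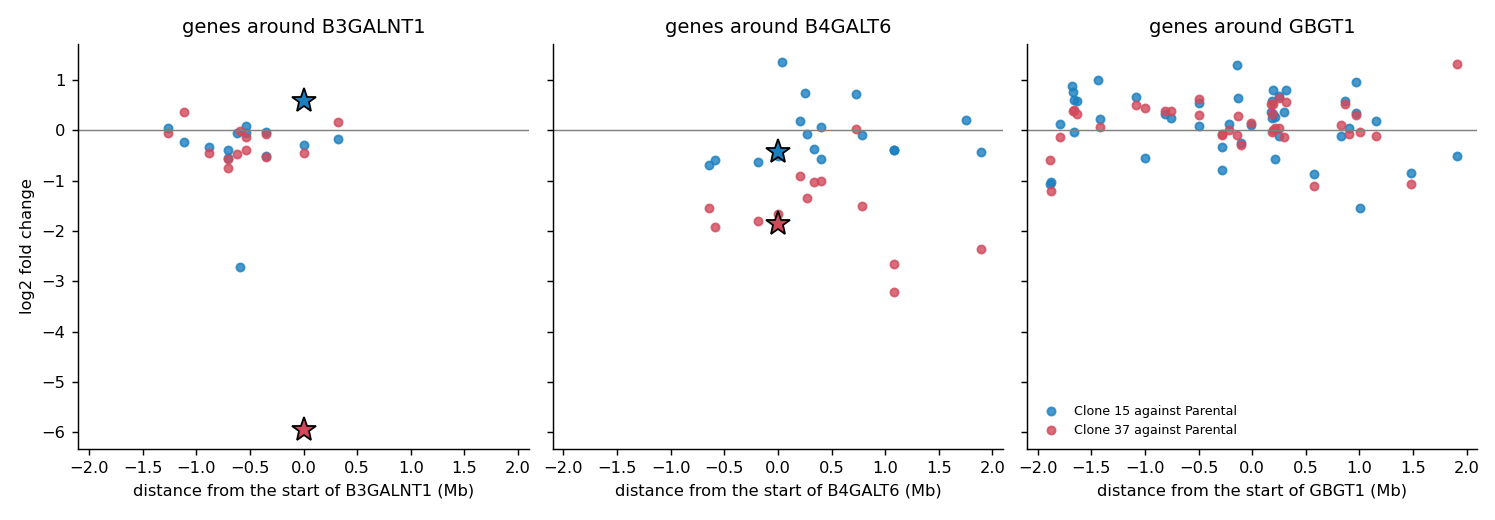
Log2 fold change of tested genes against the distance of their start from that of B3GALNT1, B4GALT6 and GBGT1 (Mb), for clone 15 and clone 37 against parental; stars mark B3GALNT1 and B4GALT6 themselves, and GBGT1 is not drawn. In clone 37 the neighbours of B4GALT6 lie low with it (median -1.54), while those of B3GALNT1 have a median of -0.40. The gene itself has a fitted -5.96 there, which is a description.

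Among 13019 protein-coding genes with a mean of at least 1 CPM over the 9 libraries, the 5 whose pattern across these was most like that of GBGT1 were NRG1 (Pearson r 0.996), ARHGEF39 (0.994), SOWAHB (0.993), MBNL1 (0.993) and SDR39U1 (0.992), on the log2(CPM + 0.5) scale. NRG1, which encodes the growth factor neuregulin, had 1.94, 2.01 and 3.37 CPM in parental, 32.9, 31.8 and 34.6 CPM in clone 15 and 0.55, 0.68 and 0.65 CPM in clone 37. Parental library 3 was the highest of that group, as for GBGT1. The other 4 spanned narrower ranges, such as 93.1 CPM in clone 37 to 136 CPM in clone 15 for the splicing regulator MBNL1. B3GALNT1 ranked 1432 in this order (r 0.82), B3GALT5 ranked 618 (0.91), and GBA2 ranked 94 (0.97). ST3GAL1 had an r of -0.99. With 3 groups behind 9 points, such values describe group order and spread.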

How the data were processed

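RNA from 9 HEK293T libraries (3 parental, 3 clone 15, 3 clone 37) was depleted of ribosomal RNA and made into directional libraries from 500 ng with 13 cycles, per the labels' protocols. The authors deposited raw counts per gene, 1 file per library. STAR 2.7.10a, FastQC 0.11.9 and hg38 are named in the submitters' processing notes; annotation release, trimming and filters are not given in the sources used here. Such files count uniquely mapped reads. Of read pairs, 4.59% to 5.98% were multimapping in clone 15 and 10.4% to 14.0% in the other groups. Pairs in no annotated gene were 33.7% to 34.6% in clone 15 and 19.2% to 29.9% in the other groups. Like read length, these differences cannot be told apart from the clone. Column 4, which held 92.6% to 94.0% of stranded counts, was used; 4 summary entries per file were left out.

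Groups were fitted pairwise on 6 libraries with edgeR 4.0.16 (filterByExpr, TMM, robust quasi-likelihood test; R 4.3.3), and adjusted p is Benjamini-Hochberg over all genes tested, called under 0.05. The SE is the size of the log2 fold change over the square root of F. CPM uses the gene count total. Of 60683 IDs, 60370 had a symbol and 58496 matched GENCODE 29, which gave positions and exon lengths. Promoters are RefSeq's, on GRCh38.p14.

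The members, lists and tests were chosen with earlier results of these data known. Named were the 10 members; per list and comparison, up to 2 called genes with the largest rise and 2 with the largest fall, at a mean of at least 1 CPM; the 3 nearest tested genes on each side of GBGT1; and the 5 genes most like it. Genes around B3GALNT1, B4GALT6, ST3GAL5 and UGCG, ABO, GAL3ST1, and ranks of single pathway genes were chosen after the values were seen. Alternatives were RLE size factors, DESeq2 1.42.0, no filter, a minimum of 1 CPM in 3 libraries, column 2 (unstranded), all 9 libraries in 1 fit, a replicate block, thinning, GC and length trends removed, protein-coding genes only, each library left out, and longest transcripts for levels per kb. Count ratios with 1 library left out were added after the data were seen. The fits were tested on simulated data. Reporter transcripts were not analysed here. Tables were made with pandas 2.3.3, numpy 2.4.6 and scipy 1.17.1 in Python 3.11.15, and figures with matplotlib 3.10.9.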

Additional observations from a re-analysis of the deposited data

Results flagged for a closer look

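The effects of the clones on 3 members differed from each other in the direct comparison of clone 37 with clone 15 (edgeR, adjusted over all genes). The difference was -6.60 on the log2 scale for B3GALNT1, 0.33 for UGCG and -1.43 for B4GALT6. The calls of UGCG and B4GALT6 were kept in every alternative run for them. B3GALNT1 passed the filter on low counts only through clone 15, so its value and its call, also kept, are descriptions.

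Reads on the strand opposite to a member, which the stranded counts leave out, came to 973 for B4GALNT1 over the 9 libraries (57 to 224 per library) and 178 for B3GALT4 (8 to 62 per library). Opposite-strand reads were 20.0% of the counts of both strands together for B4GALNT1 and 42.5% for B3GALT4, and 26.7% of the exon bases of B4GALNT1 lie opposite SLC26A10P. For GBGT1 they were 0 and for B3GALNT1 12.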

How the results depend on the processing

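Of 24 member and comparison pairs, 14 were called, and 10 kept the call under all alternatives run. Both counts include B3GALNT1 in the comparisons of clone 37 with parental and with clone 15. There it passed the filter on low counts only through the other group, so its kept calls are descriptions. Of 384 alternative values, 352 kept direction and side of the threshold, 17 lost and 3 gained the call, and 12 changed sign, none of them called. The last were A4GALT in clone 15 (-0.0396 unstranded, -0.162 with GC and length trends removed, and -0.058 to 0.123 with 1 library left out), UGCG in clone 15 (-0.049 unstranded, 0.198 with GC and length trends removed, which kept the sign, and -0.0545 to 0.0659 with 1 library left out) and B4GALNT1 between the clones (0.0955 unstranded, 0.121 with GC and length trends removed, and -0.0851 to 0.0218 with 1 library left out). The losses were B4GALT5 and ST3GAL5 in clone 15, B4GALT6 in clone 15 with GC and length trends removed (-0.05), and B4GALT5 in clone 37; unstranded counts also ended the B4GALT5 calls (0.23, adjusted p = 0.0626, and 0.20, adjusted p = 0.0936). The gains were all of B3GALT4. The cause was not tested.

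Same-numbered replicates deviated with correlations from -0.16 to 0.02, so the numbers do not pair the libraries. With a replicate block, 8708, 8375 and 10490 genes were called in place of 9092, 8903 and 10223, and no member's call changed.

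With the longest transcript in place of merged exons, the B4GALT6 share was 57.5%, 45.2% and 24.1% in parental, clone 15 and clone 37, and the A4GALT to ST3GAL5 ratio was 0.486, 0.596 and 0.730. Of 150 alternative levels 14 moved beyond 1 SD, all under unstranded counts. GBGT1 in parental, B3GALT4 and ST8SIA1 rest on few counts, which limits their precision.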
